A study of Mus musculus with 6 samples.

Results

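The D cyclins, the kinases they bind, the CDK inhibitors that oppose them and the prolactin receptor, 10 genes in all of 32285 in the count tables, were followed in single-cell RNA-Seq data on pancreatic islets of WT mice and of mice whose β cells lacked 14-3-3ζ (β14-3-3ζ–KO). They were selected by symbol: *Ccnd1*, *Ccnd2* and *Ccnd3*, *Cdk4* and *Cdk6*, *Cdkn1a*, *Cdkn1b*, *Cdkn1c* and *Cdkn2c*, and *Prlr*. A UMI is a tag that marks 1 captured transcript, and all 10 genes had UMIs in every library. Each genotype had 3 libraries, 1 per mouse, from C57/BL6 mice of 12 to 14 weeks. KO mice carried floxed *Ywhaz*, the gene of 14-3-3ζ, together with the Ins1-CreThor driver, which is active in β cells, and WT littermates carried the same Cre without the floxed alleles. *Xist* was near 0 and *Ddx3y* was present in β-like cells of all 6 libraries, so sex did not differ between the groups. After an overnight rest the islets were dispersed and dead cells were removed.

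D cyclins bind CDK4 or CDK6, and the active kinases phosphorylate the retinoblastoma protein, which frees E2F factors and lets a cell leave G1. Inhibitors of the INK4 family, such as p18 from *Cdkn2c*, bind CDK4 and CDK6 themselves, whereas those of the CIP/KIP family, p21 from *Cdkn1a*, p27 from *Cdkn1b* and p57 from *Cdkn1c*, act on cyclin–CDK complexes. In mouse islets cyclin D2 is the D cyclin known to be needed for postnatal β cell growth, and prolactin receptor signalling through JAK2 and STAT5 is known for driving β cell expansion in pregnancy. The comparison of genotypes asked whether these genes moved when 14-3-3ζ was absent from β cells, in a study that examined β cell proliferation.

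For each library and cell type the UMIs of all its cells were added up, and a level is given as CPM, the count of a gene scaled to a common total over the summed cells. Means ± SD over 6 libraries take both genotypes together. The deposited tables held 4400 to 10722 barcodes and 74083947 to 98294915 UMIs per library, and 1839 to 7626 barcodes per library were kept as cells. Cells were clustered without the 10 genes. Clusters were named from marker genes, so each name ends in -like. There were 4713 β-like cells, 923 α, 610 δ and 241 *Ppy*-like cells, 948 endothelial, 569 stellate, 499 macrophage, 255 dendritic, 3097 B, 1654 T and 184 ductal-like cells. The β-like count leaves out KO cells with a *Ywhaz* UMI, as described below. At least 1 library held under 10 dendritic, T or ductal-like cells, so their levels are over 4, 5 and 5 libraries without a comparison of genotypes. Some facts about the types touch the levels below. Insulin UMIs reached 16.7% of all UMIs in B-like cells and 17.5% in T-like cells, which do not make insulin, against 41.1% to 48.4% in β-like cells. In addition, the largest stellate-like cluster held endothelial markers at 12961 to 16500 CPM, near the 15805 to 20748 CPM of endothelial-like cells, besides its own markers at 967 to 1867 CPM.

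The targeted gene went with the labels. With all KO β-like cells kept, *Ywhaz* was at 141, 159 and 152 CPM in the 3 WT libraries and at 17.8, 17.7 and 17.7 CPM in the KO libraries, on the scale of trimmed means (TMM). The log2FC, the log2 of the fold change (here KO minus WT), was −3.09 (SE 0.0748, adjusted p = 5.79e-07 by edgeR's quasi-likelihood method over 9346 genes). Following the study's practice, KO β-like cells in which *Ywhaz* was still counted were dropped from the comparisons of genotypes in β-like cells. That kept 736, 711 and 622 KO cells against 817, 883 and 944 WT cells, and the levels of β-like cells by type also use these cells. In α-like cells, where the driver should not act, a *Ywhaz* UMI was found in 51 of 58, 105 of 140 and 107 of 121 WT cells and in 87 of 132, 187 of 268 and 137 of 204 KO cells. The KO α-like cells were also shallower, with medians of 17154, 12355 and 15676 UMIs against 25790, 15788 and 21087, and the *Ywhaz* level there was 97.9, 145 and 133 CPM in WT and 82.6, 106 and 114 CPM in KO libraries, which overlapped. *Ywhaz* was not called between genotypes in α-like cells.

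The promoters of *Prlr*, *Cdkn1a* and *Cdkn2c*, the 3 members called between β and α or δ-like cells below, are shown first. RefSeq's table for GRCm38.p6 matched 7 of the 10 genes, and *Ccnd1*, *Ccnd2* and *Cdkn1c* had no entry. The 250 bases before the outermost of each gene's starts in that table are given 5′ to 3′ on the gene's strand, at chr15:10176988-10177237 (+ strand) for *Prlr*, chr17:29090729-29090978 (+ strand) for *Cdkn1a* and chr4:109666757-109667006 (− strand) for *Cdkn2c*. The table held 3, 2 and 2 starts for these genes, and a 3′ assay does not tell which was used. For *Cdkn2c* the outermost RefSeq start lay 433 bases inside the gene as GENCODE vM21 draws it, so its window begins 183 bases inside that gene and does not precede the GENCODE start. Capitals mark matches on either strand to 7 motifs: the E2F sequences TTTGGCGC and TTTCCCGC, the STAT sequence TTCNNNGAA, the FoxO sequence TTGTTTAC, the E-box CACGTG, the Sp1 sequence GGGCGGGG, and CATGNNNNNNCATG, the paired cores of a p53 site, which was added after the sequences were seen.
Prlr: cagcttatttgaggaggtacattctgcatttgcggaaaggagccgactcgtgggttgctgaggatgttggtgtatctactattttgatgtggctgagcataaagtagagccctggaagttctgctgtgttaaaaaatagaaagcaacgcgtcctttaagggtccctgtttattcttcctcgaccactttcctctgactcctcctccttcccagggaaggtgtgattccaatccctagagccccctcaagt
Cdkn1a: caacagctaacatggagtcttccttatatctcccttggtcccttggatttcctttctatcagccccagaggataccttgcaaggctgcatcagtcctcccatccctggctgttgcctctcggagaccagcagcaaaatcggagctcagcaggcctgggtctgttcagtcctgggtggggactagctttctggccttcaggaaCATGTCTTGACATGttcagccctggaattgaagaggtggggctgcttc
Cdkn2c: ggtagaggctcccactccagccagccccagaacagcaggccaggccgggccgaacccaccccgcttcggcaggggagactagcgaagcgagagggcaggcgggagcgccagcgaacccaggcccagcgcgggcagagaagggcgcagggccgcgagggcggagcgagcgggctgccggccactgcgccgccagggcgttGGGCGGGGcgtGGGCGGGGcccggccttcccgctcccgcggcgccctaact
*Cdkn1a* is a classical p53 target, and its window held the paired p53 cores 48 bases before the start, which 0.490% of 32851 promoters held. The *Cdkn2c* window, 77.2% G and C, held the Sp1 sequence 51 and 40 bases before the start, as did 16.1% of promoters at any place. None of the 7 sequences was found in the *Prlr* window. The STAT sequence was present in 7.02%, the E-box in 6.02%, the FoxO sequence in 1.07% and the E2F sequences in 0.417% and 0.895% of promoters. These matches are a description of the sequence only.

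In GENCODE vM21 (GRCm38), all 10 genes were protein coding. *Prlr* lay at chr15:10177238-10349180 (+), *Ccnd2* at chr6:127125162-127152193 (−), *Cdkn1a* at chr17:29090976-29100727 (+) and *Cdkn1c* at chr7:143458339-143461050 (−). *Ccnd1* lay at chr7:144929931-144939925 (−), *Ccnd3* at chr17:47505051-47599691 (+), *Cdk4* at chr10:127063534-127067920 (+) and *Cdk6* at chr5:3341485-3531008 (+). *Cdkn1b* lay at chr6:134920401-134925513 (+) and *Cdkn2c* at chr4:109660876-109667189 (−). The 3′ end of *Cdk4* overlapped *Tspan31* on the opposite strand, which had 7774 UMIs in β-like cells against 8248 for *Cdk4*, that of *Ccnd1* overlapped *LTO1* (1782 UMIs), and that of *Ccnd3* overlapped *Bysl* (1236 UMIs). Reads of these pairs could be split between the genes. The strand setting of the counting is not given in the sources used here.

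*Prlr*, which encodes the receptor for prolactin and placental lactogen, was the gene whose level set β-like cells apart. It was at 205, 248 and 239 CPM in β-like cells of the 3 WT libraries and at 218, 216 and 245 CPM in those of the KO libraries. In α-like cells, next in order, it was at 67.7, 30.6 and 50.2 CPM in WT and 55.7, 53.8 and 25.9 CPM in KO libraries. The 2 ranges did not overlap, whereas each further neighbour in the order overlapped the one before it. Means in the other types ran from 12.1 ± 6.36 CPM in macrophage-like cells (SD, n = 6) to 35.4 ± 12.9 in B-like cells (SD, n = 6).

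**Figure D1:**
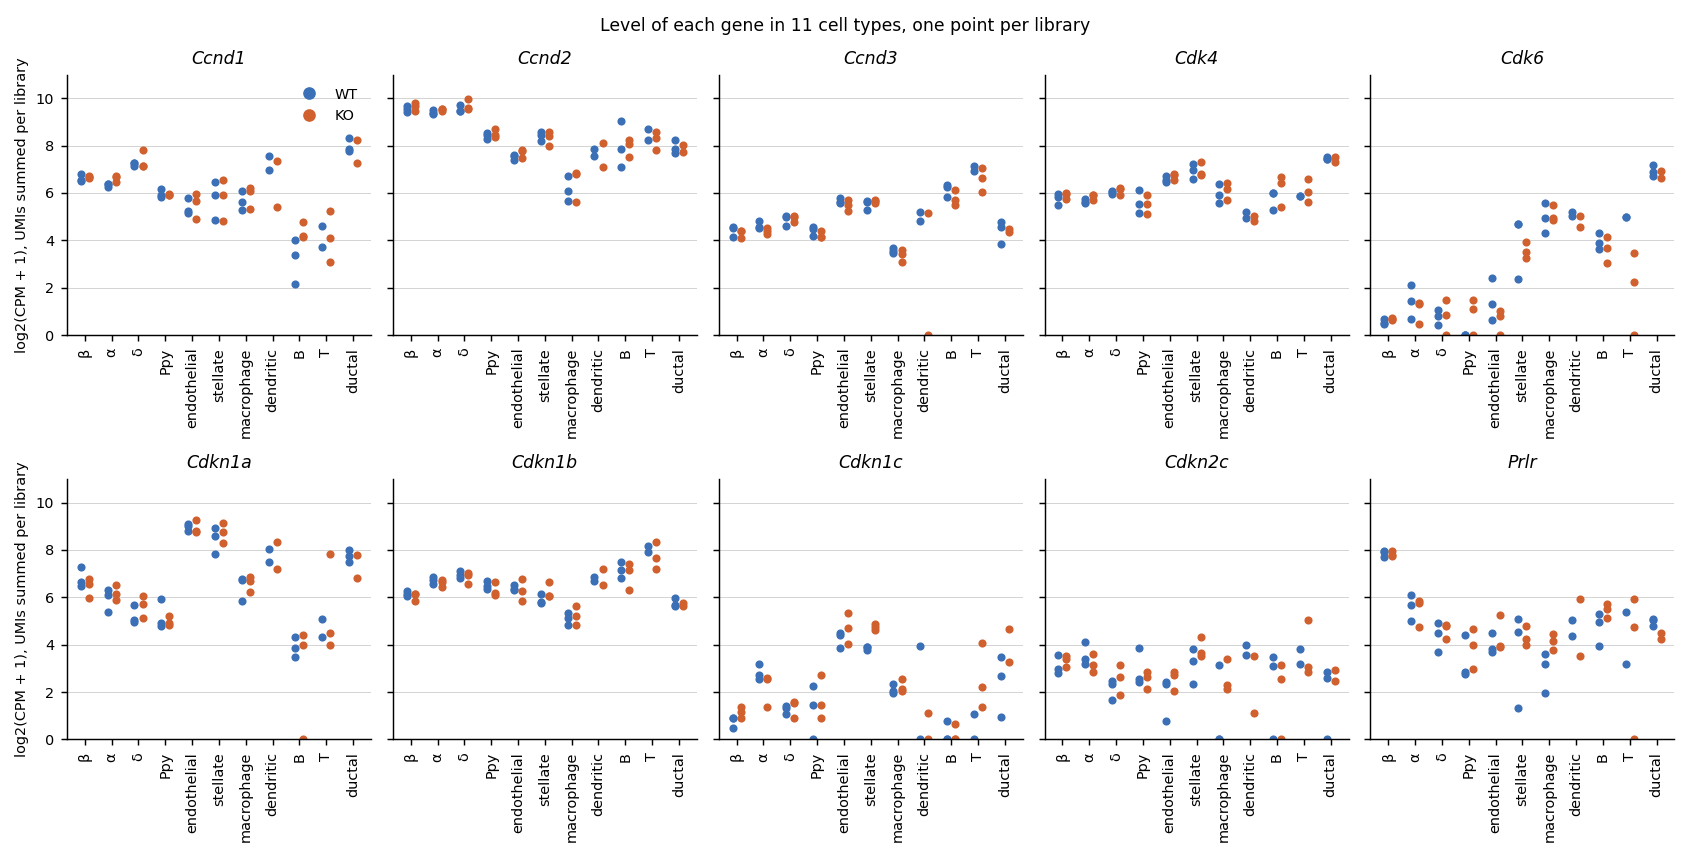
Level of each of the 10 genes as log2(CPM + 1) in 11 cell types, 1 point per library with WT in blue and KO in orange. *Prlr* is highest in β-like cells (205 to 248 CPM), *Ccnd2* in δ, β and α-like cells, and *Cdk6* and *Cdkn1c* are near 0 in β-like cells.

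β and α or δ-like cells were compared within libraries, with edgeR's quasi-likelihood test, the library as a block, and adjustment over 10132 genes. A gene was called at an adjusted p under 0.05 and an absolute log2FC above 1, and 6.34% of genes were called higher and 6.07% lower in β than in α-like cells (12.4% in all), with 5.76% and 8.47% against δ-like cells (14.2% in all). *Prlr* was called in both. Against α-like cells its log2FC was 2.64 (SE 0.139, adjusted p = 1.69e-15), with 278 ± 8.45 against 46.3 ± 16.7 CPM on the TMM scale of the 3 types (SD, n = 6). Against δ-like cells it was 3.96 (SE 0.170, adjusted p = 1.17e-17), with 19.0 ± 5.93 CPM in δ (SD, n = 6), and β was higher in 6 of 6 libraries in both. Cells were also typed by their dominant hormone, at 5% or more of UMIs and 2-fold or more over the next hormone. This rule leaves out cells in which insulin comes near the α hormone. With cells typed this way the β to α difference of *Prlr* was 4.64. Over all fits run it ranged from 2.46 to 4.64, and the β to δ difference from 2.99 to 4.22.

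The *Prlr* UMIs outside β-like cells were set beside the insulin UMIs of the same cells. In each library and type, the ratio of insulin UMIs to those of β-like cells was multiplied by the *Prlr* level of β-like cells, which gives the level that goes with that insulin at the ratio of β-like cells. For this step the β-like cells included KO cells with a *Ywhaz* UMI. In α-like cells this level was 24.8, 36.1 and 41.8 CPM in WT and 47.8, 50.9 and 22.0 CPM in KO libraries, and the measured level was above it in 5 of 6 libraries, by most in WT library 1. In macrophage-like cells it was 3.69 to 36.3 CPM, and the measured level was above it in 1 of 6 libraries. In stellate-like cells the measured level was above it in 1 of 6 libraries, in dendritic-like cells in 0 of 4, in B-like cells in 2 of 6 and in T-like cells in 1 of 5. *Prlr* was thus measured at or under the level that goes with insulin in most libraries of the immune types. After each cell was thinned to 5000 UMIs, 57.6% to 64.9% of β-like cells had a *Prlr* UMI, against 1.64% to 13.04% of macrophage-like cells. Before thinning the shares were 91.1% to 94.7% and 4.55% to 19.7%, at median depths of 21569 to 41752 UMIs per β and 9892 to 15227 per macrophage-like cell. Macrophage-like cells were among the lower types. The thinned share was 7.02% to 16.2% in α-like cells and reached 29.5% in dendritic, 33.3% in B and 23.0% in T-like cells. Of the B-like cells, 816 WT and 872 KO cells were too shallow for thinning and were left out.

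**Figure D2:**
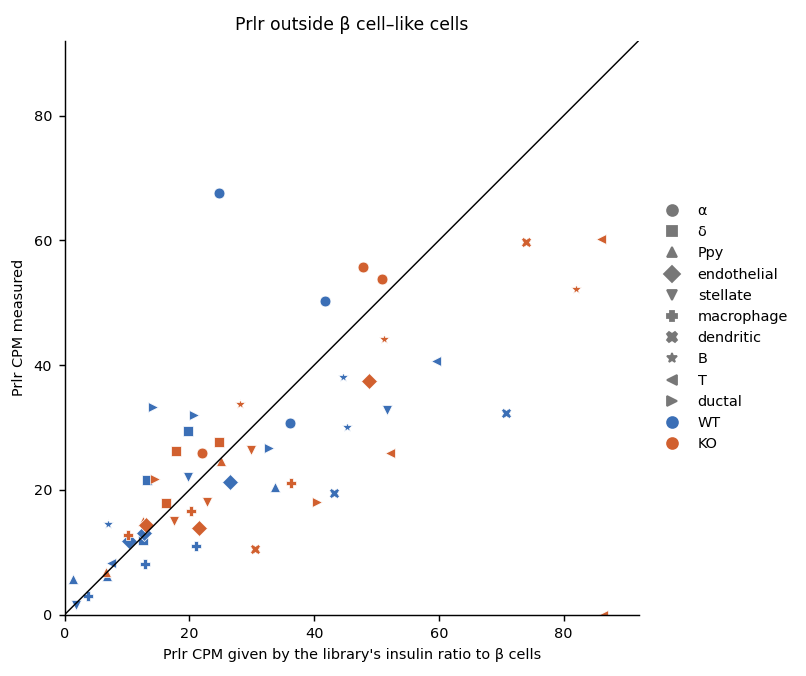
*Prlr* level measured (vertical axis, CPM) against the level given by the insulin ratio of the same library (horizontal axis, CPM) in 10 cell types outside β, 1 point per type and library, with the line of equal values. Points of α-like cells lie on or above the line in 5 of 6 libraries, and those of dendritic-like cells below it in 4 of 4.

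*Ccnd2*, the gene of cyclin D2, had its highest levels in 3 of the endocrine types. It was at 678, 735 and 808 CPM in β-like cells of WT and 821, 710 and 890 CPM in those of KO libraries. In δ-like cells it was at 703, 712 and 830 CPM in WT and 753, 765 and 1014 CPM in KO libraries. In α-like cells it was at 645 to 742 CPM, a range that overlapped that of β-like cells but not the 308 to 415 CPM of *Ppy*-like cells. The remaining types ran down to 81.7 ± 30.9 CPM in macrophage-like cells (SD, n = 6), and between *Ppy* and endothelial-like cells every neighbour overlapped. The order of the first 3 types depended on the scale. Insulin took a large part of the UMIs of β-like cells, and with hormone UMIs taken out of the totals *Ccnd2* was at 1462 ± 100.5 in β, 1052 ± 156 in δ and 1004 ± 57.7 in α-like cells (SD, n = 6). On the TMM scale, *Ccnd2* was higher in β-like cells than in α by a log2FC of 0.47 (SE 0.0592, adjusted p = 8.84e-08) and than in δ by 0.50 (SE 0.0597, adjusted p = 3.53e-08), both in 6 of 6 libraries, whereas on plain CPM δ was above β in 4 of 6 libraries.

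*Ccnd1*, the gene of cyclin D1, was highest in ductal-like cells at 243 ± 65.0 CPM (SD, n = 5), followed by δ-like cells at 158 ± 33.2 (SD, n = 6), dendritic, β and α-like cells, with each neighbour overlapping the next. β-like cells held 99.5 ± 7.28 CPM (SD, n = 6) and B-like cells, the lowest, 14.8 ± 7.88 (SD, n = 6). *Ccnd3*, the gene of cyclin D3, had another order. T-like cells led at 111 ± 31.2 CPM (SD, n = 5), followed by B-like cells at 62.3 ± 14.6 (SD, n = 6), and β-like cells held 19.6 ± 2.59 (SD, n = 6). *Ccnd1* passed the adjusted threshold for β over α-like cells (log2FC 0.49, SE 0.0783, adjusted p = 4.48e-06) and not for β against δ (−0.12, SE 0.0770, adjusted p = 0.174), and *Ccnd3* passed in neither (0.17, SE 0.0904, and −0.01, SE 0.0945). An adjusted p under 0.05 alone was reached by 62.1% of genes for β against α and 64.2% for β against δ, and by 6 of the 8 tested members in each contrast.

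Of the partner kinases, *Cdk4* was found in every type and *Cdk6* was nearly absent from endocrine cells. *Cdk4* was highest in ductal-like cells at 173 ± 11.7 CPM (SD, n = 5) and was at 56.2 ± 6.90 in β, 53.2 ± 5.58 in α and 66.2 ± 5.61 in δ-like cells (SD, n = 6). On the TMM scale it was higher in β than in α by 0.41 (SE 0.0607, adjusted p = 1.17e-06) and than in δ by 0.30 (SE 0.0636, adjusted p = 1.97e-04), whereas on plain CPM its mean was higher in δ than in β. *Cdk6* had 79 UMIs over all β-like cells, which is 0.404 to 0.670 CPM per library, and 26 UMIs over all α-like cells. In ductal-like cells it was at 117 ± 18.1 CPM (SD, n = 5), in macrophage-like cells at 32.9 ± 10.5 (SD, n = 6), and the ranges of these types did not overlap.

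The CIP/KIP inhibitors differed in where they were found. *Cdkn1a*, the gene of p21, was highest in endothelial-like cells at 499 ± 75.7 CPM (SD, n = 6) and in stellate-like cells at 398 ± 118 (SD, n = 6), but within the latter it went with the cluster. The cluster with endothelial markers named above held 404 to 602 CPM. The cluster with the most stellate markers (5397 to 6672 CPM) and few endothelial ones (81.0 to 445 CPM) held 49.8 CPM in WT replicate 2, 172.5 in KO replicate 2 and 102 in KO replicate 3, the libraries with enough of its cells, and the third cluster held 141 to 556 CPM. Its level in β-like cells was 101 ± 29.9 CPM (SD, n = 6), above δ-like cells by 1.78 on the log2 scale (SE 0.176, adjusted p = 9.41e-10), which was called, and above α-like cells by 0.88 (SE 0.149, adjusted p = 1.14e-05), which fell short of the fold needed, though it passed over WT libraries alone (1.21) and without KO replicate 3 (1.006). β was higher than either in 6 of 6 libraries. *Cdkn1b*, the gene of p27, went the other way. It was at 67.8 ± 6.66 CPM in β, 100.3 ± 10.5 in α and 119.6 ± 16.1 in δ-like cells (SD, n = 6), with log2FC values of −0.23 (SE 0.0508, adjusted p = 2.65e-04) and −0.28 (SE 0.0527, adjusted p = 3.91e-05), and β was lower in 6 of 6 libraries on the TMM scale. T-like cells held the most, 237 ± 69.7 CPM (SD, n = 5). *Cdkn1c*, the imprinted gene of p57, was at 0.404 to 1.56 CPM in β-like cells, 1.56 to 8.09 in α, 13.7 to 39.8 in endothelial and 12.8 to 27.9 in stellate-like cells. Its stellate level also went with the cluster, at 11.5 to 36.8 CPM in that with endothelial markers. In the cluster with the most stellate markers it was at 3.00 CPM in WT replicate 2, 6.39 in KO replicate 2 and 2.75 in KO replicate 3. The third cluster held 0 to 55.0 CPM, on at most 7 UMIs a library.

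*Cdkn2c*, the INK4 inhibitor among the 10 genes, was low everywhere, with type means from 3.99 to 13.4 CPM and every neighbour in the order overlapping the next. It was nevertheless called in β over δ-like cells, with a log2FC of 1.53 (SE 0.199, adjusted p = 1.54e-07) and higher levels in 6 of 6 libraries, on 10.5 ± 2.90 against 3.66 ± 1.65 CPM on the TMM scale (SD, n = 6). Against α-like cells it was not (0.17, SE 0.146, adjusted p = 0.319), and β was higher in 3 of 6 libraries. In all, 1 of 8 tested members was called for β over α-like cells and 3 of 8 for β over δ, all higher in β. *Cdkn2c* was tested through its share of β and α-like cells, as only 6.14% of WT and 8.52% of KO δ-like cells had a UMI. *Cdk6* and *Cdkn1c*, with lower mean CPM in β than in α-like cells, did not pass the filter. The filter thus bears on the direction of these calls.

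**Figure D3:**
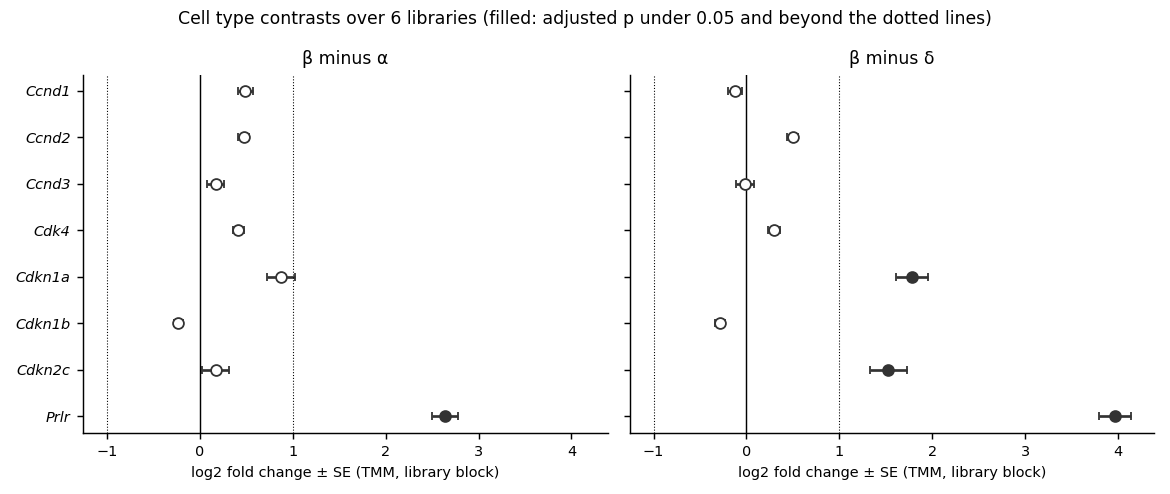
Log2FC of the 8 tested genes in β minus α and β minus δ-like cells, with SE, over 6 libraries. Filled points passed both limits: *Prlr* in both panels (2.64 and 3.96), *Cdkn1a* and *Cdkn2c* in the δ panel (1.78 and 1.53), while *Cdkn1b* lies below 0 in both.

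The immediate early genes, which respond to cell dissociation, also differed between the endocrine types. Of 13 tested, 10 were called lower and 0 higher in β than in δ-like cells (median log2FC −2.28, against −0.01 over all genes), and 6 lower and 1 higher against α (median −0.94). Their part in the *Cdkn1a* difference was not tested. Of the p53 target list beside *Cdkn1a*, 5 of 12 were called higher and 2 lower in β than in δ-like cells (median 0.74), among them *Ccng1* at 1.66 (SE 0.0984) and *Phlda3* at 2.57 (SE 0.226) above and the antiproliferative gene *Btg2* at −2.01 (SE 0.117) below. Against α-like cells 0 of 12 were called. In the prolactin and growth hormone receptor list, 13 of 17 genes were tested and 2 were called higher in β than in α-like cells, *Igf1r* (2.31, SE 0.104) and *Ghr* (1.26, SE 0.0557), the receptors for IGF1 and growth hormone. Against δ-like cells *Igf1r* was called higher (2.47, SE 0.108) and *Cish*, a STAT5 target that damps cytokine receptors, lower (−1.43, SE 0.130). In the list of G1/S genes, 19 of 35 were tested. *Bmi1*, which represses the *Cdkn2a* locus, was called higher in β than in both (1.204, SE 0.0687, and 1.23, SE 0.0741), and *Men1* (1.03, SE 0.110) and the INK4 gene *Cdkn2b* (1.36, SE 0.194) were called higher than in δ.

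Within β-like cells, 3 clusters of 2371, 1811 and 531 cells differed in insulin, which took 33.4% to 35.0%, 46.3% to 51.6% and 63.0% to 74.1% of UMIs. Plain CPM of most members fell in step with this, such as *Ccnd2* at 943 ± 68.0, 699.8 ± 95.2 and 263 ± 60.6 CPM and *Cdk4* at 63.7 ± 5.42, 55.0 ± 5.97 and 19.6 ± 2.83 (SD, n = 6). *Cdkn1a* did not, at 102 ± 42.6, 109.9 ± 41.3 and 101 ± 51.2 CPM (SD, n = 6). With hormone UMIs taken out of the totals, *Prlr* was at 417 ± 6.23, 449 ± 61.0 and 381 ± 83.3 and *Cdkn1a* at 164 ± 67.7, 227 ± 96.8 and 364 ± 178 (SD, n = 6). These values come from the cells that were clustered and are given without a test. The 3 clusters took different shares of the β-like cells in each library. In the 3 WT libraries the first held 56.7%, 50.1% and 56.5% of them, the second 18.8%, 41.8% and 33.8%, and the third 24.5%, 8.15% and 9.75%. For the KO libraries these shares were 58.4%, 23.9% and 53.5% in the first, 28.3%, 70.6% and 41.6% in the second, and 13.3%, 5.49% and 4.82% in the third. WT replicate 1 thus had the highest share of the insulin-richest cluster and KO replicate 2 the lowest of the first, and the part of this in the comparison of genotypes below was not tested.

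No member was called between genotypes in β-like cells. The fit covered 9322 genes, those seen in over 15% of the cells of 1 genotype or both, and 8 of the 10 members were among them, all but *Cdk6* and *Cdkn1c*. At an adjusted p under 0.05 and an absolute log2FC above 0.1, 1 gene was called (0.0107%), *Ywhaz*, whose call follows from leaving out KO cells with its UMIs. An unadjusted p under 0.05 was reached by 459 genes (4.92%) and by no member, and KO and WT libraries did not overlap for 11.3% of genes and for 0 of the 8 members. With libraries paired by their replicate number (a replicate block), 25 genes were called, again with 0 members.

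*Ccnd2* was at 759, 700.3 and 756 CPM in β-like cells of WT and at 816, 757 and 842 CPM in those of KO libraries on the TMM scale of this comparison. The lowest KO library lay just inside the WT range, and the log2FC was 0.12 (SE 0.0868, adjusted p = 0.876, edgeR). *Cdk4* was at 49.5, 52.98 and 56.4 CPM in WT and 52.8, 67.1 and 57.6 CPM in KO libraries (0.16, SE 0.0987, adjusted p = 0.876). *Ccnd1* was at 102, 88.5 and 103 CPM in WT and 99.96, 104 and 99.5 CPM in KO libraries (0.05, SE 0.0784, adjusted p = 0.939). For *Ccnd2* and *Cdk4* each KO library lay above the WT library of its number on this scale. On plain CPM *Ccnd2* went the other way in pair 2, with 710 CPM in KO and 735 CPM in WT. With the replicate block the log2FC was 0.12 (SE 0.0842, adjusted p = 0.568, edgeR) for *Ccnd2* and 0.15 (SE 0.0721, adjusted p = 0.395, edgeR) for *Cdk4*. On the TMM scale all 3 pairs went one way for 35.3% of the 9322 genes and for 4 of the 8 members, *Ccnd2* and *Cdk4* upward and *Cdkn1a* and *Cdkn1b* downward. The genotypes overlapped for *Ccnd1*, *Ccnd2* and *Cdk4*, drivers of G1 exit, as they did for *Ccnd3*, at 18.9 to 21.4 CPM in WT and 17.2 to 19.9 CPM in KO libraries (−0.11, SE 0.0866, adjusted p = 0.877).

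**Figure D4:**
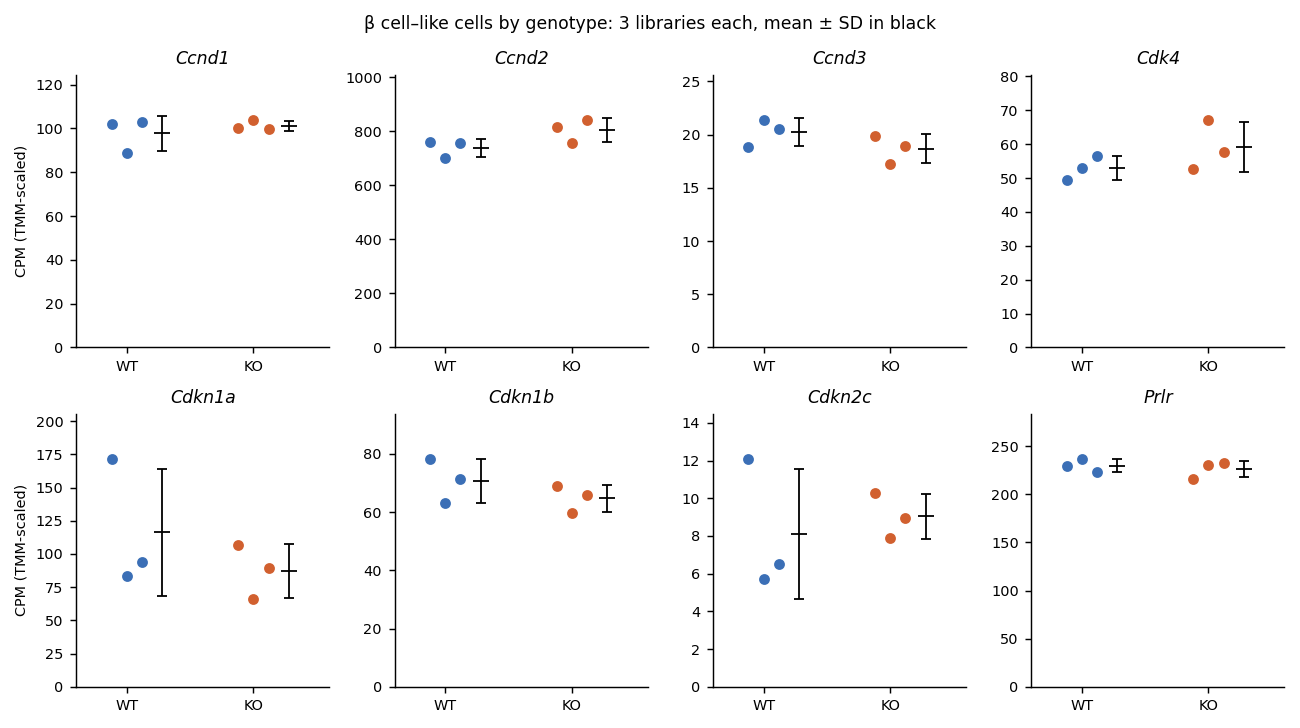
Level of the 8 tested genes in β-like cells, in TMM-scaled CPM on axes from 0, with 1 point per library and the mean ± SD of 3 libraries in black. WT and KO points overlap in every panel, and WT replicate 1 lies above the other WT libraries for *Cdkn1a* (171 CPM against 83.7 and 93.7).

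*Prlr* was nearly level between genotypes, at 229.7 ± 6.56 CPM in WT and 226 ± 8.60 in KO β-like cells (SD, n = 3), a log2FC of −0.02 (SE 0.0713, adjusted p = 0.962, edgeR). Among the inhibitors, *Cdkn1b* was at 78.1, 63.0 and 71.3 CPM in WT and 68.8, 59.7 and 65.7 CPM in KO libraries (−0.13, SE 0.0952, adjusted p = 0.876). Each KO library lay below the WT library of the same number, but the groups overlapped. With the replicate block the log2FC of *Cdkn1b* was −0.13 (SE 0.0616, adjusted p = 0.403, edgeR). *Cdkn2c* was at 12.1, 5.73 and 6.50 CPM in WT and 10.3, 7.89 and 8.93 CPM in KO libraries (0.16, SE 0.262, adjusted p = 0.939). Shares of β-like cells with a UMI, thinned to 5000 UMIs a cell, gave no member a 2-sided exact permutation p under 0.2, where 0.1 is the smallest that 3 against 3 allows. For *Ccnd2* the share was 89.8% ± 4.62 in WT and 92.5% ± 1.39 in KO libraries, and for *Prlr* 61.4% ± 3.66 and 62.5% ± 3.14 (SD, n = 3, exact permutation p = 0.5 and 0.8).

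*Cdkn1a* had the largest fold change of the 8, and its size depended on which libraries were set against each other. It was at 171, 83.7 and 93.7 CPM in WT and at 106, 65.9 and 89.1 CPM in KO β-like cells, a log2FC of −0.41 (SE 0.267, adjusted p = 0.876, edgeR). WT replicate 1 stood above all others, and each KO library lay below the WT library of its number. Without WT replicate 1 the log2FC was −0.02 (SE 0.168, adjusted p = 0.997), which leaves KO replicate 1 without its pair. With the replicate block it was −0.37 (SE 0.0965, adjusted p = 0.14, edgeR), and −0.20 (SE 0.0862, adjusted p = 0.417) with both libraries of pair 1 left out. It was called in 1 of these fits, that without pair 2 (−0.38, SE 0.0801, adjusted p = 2.68e-04), and not without pair 3 (−0.52, SE 0.104, adjusted p = 0.0567). A fit of 2 pairs has 1 residual degree of freedom per gene and leans on the spread shared over genes. By cluster of β-like cells, WT replicate 1 was highest in the first (183 CPM against 68.9 to 113) and the second (181 against 58.4 to 117) and not in the third (70.6 against 34.8 to 166). A list of other p53 targets had its highest library in the same place. On the TMM scale WT replicate 1 was highest for 10 of the 11 genes tested, against 25.8% of all 9322 genes. *Ccng1*, the gene of cyclin G1, was at 148 CPM in WT replicate 1 and 70.3 to 99.9 CPM in the other 5 libraries, and *Phlda3* at 16.5 against 5.11 to 10.62 CPM. Both were picked after their values were seen. Immediate early genes were highest in WT replicate 1 for 9 of 11 genes on the TMM scale, a lead that depended on the scale. On plain CPM it was highest for *Jun* (79.5 CPM) and *Ier2* (18.4). *Fos* was then highest in KO replicate 1 (45.6 against 45.4) and *Egr1* in WT replicate 3 (95.3 against 87.3). The plain sum of the list was 585, 511 and 526 CPM in WT and 564, 372 and 436 CPM in KO libraries. The β-like cells of WT replicate 1 were also the deepest, with a median of 41752 UMIs against 21569 to 31502 elsewhere. Between genotypes 0 of the 11 p53 targets were called, 1 of 11 had a positive log2FC, and the median was −0.23, against 0.00 over all genes. Without WT replicate 1, 9 of the 11 were positive and the median was 0.06, and in the paired fit without both libraries of pair 1, 4 of 11 were positive and the median was −0.04. KO was below WT for 11 of the 11 genes in pair 1, 8 in pair 2 and 5 in pair 3. With the replicate block 0 of them were called over all pairs and without pair 1, 2 without pair 2 (*Gadd45a* and *Mdm2*) and 1 without pair 3 (*Trp53inp1*). The part that depth or the immediate early genes had in this was not tested. The lowest p in this list were those of *Mdm2* (−0.23, SE 0.151) and *Gadd45a* (−0.25, SE 0.163).

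**Figure D5:**
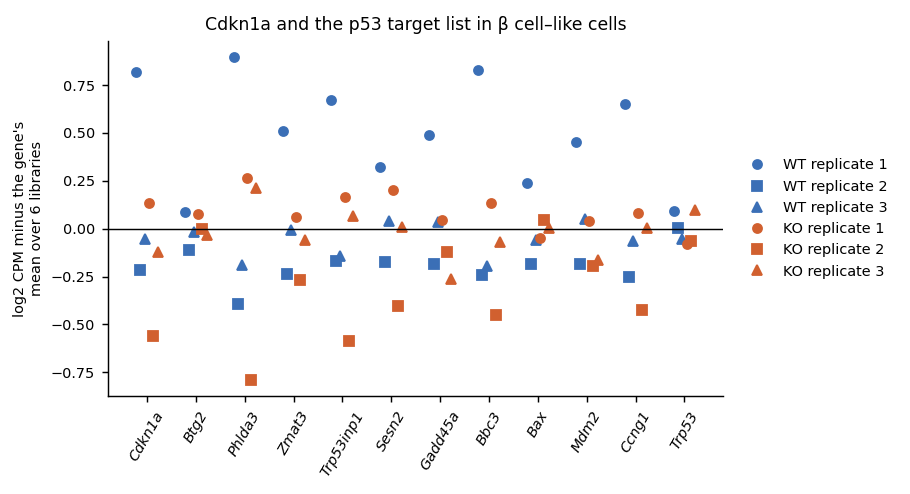
*Cdkn1a* and the 11 tested genes of the p53 target list in β-like cells, as log2 of TMM-scaled CPM minus the gene's mean over 6 libraries, 1 point per library. WT replicate 1 is the highest point for *Cdkn1a* and for 10 of the 11 listed genes.

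Of the other gene lists, none had a call between genotypes in β-like cells without the replicate block. In the G1/S list 18 of 35 genes were tested, 8 had a positive log2FC and the median was −0.01. The lowest p were those of *Men1* (−0.21, SE 0.104) and *E2f5* (0.14, SE 0.0981). In the prolactin and growth hormone receptor list 12 of 17 were tested, 6 were positive and the median was 0.01, with the feedback gene *Socs3* (0.24, SE 0.134) and the insulin receptor substrate *Irs2* (−0.33, SE 0.248) at the lowest p. Of the S, G2 and M phase genes 4 of 20 passed the filter, with *Mcm2* (−0.26, SE 0.116) at the lowest p. Of the immediate early genes 11 of 16 were tested, 2 of them at an unadjusted p under 0.05, *Egr1* (−0.56, SE 0.106) and *Ier2* (−0.37, SE 0.142), with 9 of 11 lower in KO libraries and a median of −0.28. Without WT replicate 1, 4 of 11 were positive and the median was −0.02. In the pairs, KO was below WT for 10, 11 and 9 of the 11 genes, and without both libraries of pair 1 the paired median was −0.34. With the replicate block 2 of them, *Jun* and *Egr1*, were called, 1 without pair 1 (*Egr1*), 4 without pair 2 (*Jun*, *Ier2*, *Fos* and *Egr1*) and 2 without pair 3 (*Jun* and *Egr1*). *Jun* and *Fos* are named after their values were seen. *Socs3* is in both this list and the receptor list.

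In the 7 other types compared, 52 further tests of members gave no call. The share of genes called was 0% in α, δ, endothelial, stellate, macrophage and B-like cells and 0.0225% in *Ppy*-like cells, where the 2 genes were *Gcg* and *Gm10076*. An unadjusted p under 0.05 was reached by 1 member each in α, δ, stellate, macrophage and B-like cells and by 3.56%, 3.77%, 2.2%, 5.77% and 6.29% of genes there. On the TMM scale of each type, KO and WT libraries did not overlap for 2 members in α, 1 in stellate and 1 in macrophage-like cells. The shares of all genes were 9.15%, 6.88% and 11.8%. In α-like cells *Ccnd1* was at 79.6, 80.1 and 79.7 CPM in WT and 90.5, 106 and 99.0 CPM in KO libraries (0.31, SE 0.102, adjusted p = 0.99966, edgeR). *Ccnd2* was at 684, 626 and 701 CPM in WT and 762, 709 and 721 CPM in KO α-like cells (0.12, SE 0.105, adjusted p = 0.99966). On this TMM scale both D cyclins were higher in each KO library than in any WT library, and neither passed the adjusted test. On plain CPM the groups overlapped for *Ccnd2*, with 702 CPM in KO replicate 2 and 715 CPM in WT replicate 3. In δ-like cells *Cdkn1a* was at 30.3, 30.6 and 50.6 CPM in WT and 65.8, 54.4 and 33.7 CPM in KO libraries (0.56, SE 0.209, adjusted p = 0.998), and the groups overlapped. Without KO replicate 1 the value was 0.26, and over the 6 fits without 1 library it ran from 0.26 to 0.78.

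The other values at a low unadjusted p are given with the markers of other cells beside them. In stellate-like cells *Cdkn1c* was at 12.4, 15.3 and 13.2 CPM in WT and 23.2, 26.7 and 27.0 CPM in KO libraries (0.90, SE 0.217, adjusted p = 0.9998, edgeR), on 17, 38, 17, 28, 60 and 45 UMIs. In its largest cluster alone, where endothelial markers were as high as given above, *Cdkn1c* was at 11.5, 33.5 and 17.3 CPM in WT and 30.3, 36.8 and 33.0 CPM in KO libraries, and the groups overlapped. *Prlr* in macrophage-like cells was at 2.77, 10.7 and 8.11 CPM in WT and 12.7, 22.5 and 17.1 CPM in KO libraries (1.27, SE 0.403, adjusted p = 0.834, edgeR). In B-like cells it was at 13.9, 29.8 and 36.7 CPM in WT and 33.0, 57.2 and 44.9 CPM in KO libraries (1.08, SE 0.320, adjusted p = 0.651, edgeR), where WT replicate 3 and KO replicate 1 rested on 4 and 2 UMIs. The level given by the insulin ratio moved along with these, and its part in them was not tested. In macrophage-like cells it was 3.69, 21.0 and 12.8 CPM in WT and 10.2, 36.3 and 20.3 CPM in KO libraries, and in B-like cells 6.98, 45.2 and 44.6 CPM in WT and 28.2, 82.0 and 51.1 CPM in KO libraries.

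Whether the genotype effect differed between endocrine types was tested with a genotype by type term (limma-voom with the library as a random block, 10132 genes). The term passed for *Ywhaz* alone (0.00987% of genes) in β against α-like cells and in β against δ (0.00987%), which the choice of KO cells fixes, and for no member. *Cdkn1a* came closest, with a β effect below the δ effect (−0.95, SE 0.453, adjusted p = 0.99986 by limma) and below the α effect (−0.68, SE 0.357, adjusted p = 0.998 by limma). Without WT replicate 1 the first was −0.46 (SE 0.398). The SE of these terms was 0.123 for *Ccnd2* in both, about the size of its effect in β-like cells.

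A cluster led by cell division genes held 88 cells, which were left unnamed. In WT replicates 1 and 3 and KO replicates 1 and 3 its cells were insulin-rich, with insulin at 39.2% to 60.6% of UMIs, and in replicate 2 of both genotypes they were not, at 6.47% to 7.71%. In the 4 insulin-rich libraries, with 6, 11, 23 and 11 cells, *Mki67* was at 282 to 410 CPM. *Cdkn2c* was at 59.1 and 79.5 CPM in the WT and 52.9 and 46.5 CPM in the KO libraries of these, and *Cdkn1a* at 359 and 374 CPM in WT and 536 and 470 CPM in KO libraries. Both lay above every library of β-like cells, which reached 10.8 and 153 CPM. *Ccnd2* at 430 to 620 CPM and *Prlr* at 125 to 191 CPM lay below the range of β-like cells, on plain CPM. In replicate 2 of this cluster *Cdkn1a* was at 150 CPM in WT and 26.9 CPM in KO. Another unnamed cluster led by division genes held 106 cells in WT replicate 2, 61 in KO replicate 2 and 2 in WT replicate 1. In its replicate 2 libraries insulin took 2.41% of UMIs in WT and 5.11% in KO. *Mki67* was at 816 and 592 CPM there and *Cdkn1a* at 7.26 and 4.36 CPM. With few cells in most libraries, and with clusters made from the cells' own genes, these values are a description.

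Genes with the most similar pattern were ranked by Pearson's r of log2(CPM + 1) over 62 sums, 1 per library and type, among 10099 genes at 20 CPM or more in a type. Nearest to *Prlr* were *B830017H08Rik* (r = 0.927), *Ero1lb* (0.886), an ER oxidoreductase of β cells, and *Gad1* (0.878), which makes GABA. Nearest to *Ccnd2* were *Tspyl4* (0.884), *Casc4* (0.882) and *Maged1* (0.875), and nearest to *Cdkn1c* were *Ube2s* (0.829), *Lrrc8a* (0.815) and *Cd151* (0.812). Nearest to *Cdkn1a* were *Sntb2* (0.878), *Ctnna1* (0.875) and *Mafg* (0.869). *Cdkn2c* had no close neighbour, with *Rora* at 0.543. For *Ccnd1* the first was *Shb* (0.826), for *Ccnd3* *Rbm48* (0.829), for *Cdk4* *Hdgf* (0.867), for *Cdk6* *Tuba1c* (0.881) and for *Cdkn1b* *2810013P06Rik* (0.837). The 62 points share libraries and the free RNA of their library, and the coefficients only describe likeness of pattern.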

How the data were processed

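Islet cells of 3 WT and 3 KO mice were measured with 10x 3′ libraries, 1 per mouse. The authors deposited UMI counts per gene and barcode, whole numbers without normalization. The submitters' processing notes name Cell Ranger 6.0.2, Seurat and mm10. The 10 members and the gene lists were chosen with earlier results of these data known, and the limits used to name clusters were set with the clusters in view.

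Barcodes with at least 500 genes and at most 10% mitochondrial UMIs were kept. Scrublet was run per library, with its automatic threshold in 1 library. In the other 5 the top-scored barcodes were called, at a rate rising with the library's number of barcodes with at least 500 genes. Across the kept cells, 82 barcode sequences were found in 2 or more libraries. Cells were clustered (2000 variable genes, 30 components, 15 neighbours, Leiden resolution 1) without the members, *Ywhaz*, *Ins1*, *Ins2*, mitochondrial and ribosomal genes. A cluster was named where at least 3 fixed markers were found in 10% of its cells at 1.5-fold or more, with 50 cells, a median of 3500 UMIs, and top 10 genes that did not go against the name. Unnamed clusters, among them 5932 insulin-rich cells with a median of 2132 UMIs, were not used.

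UMI sums were compared with edgeR 4.0.16 (TMM, quasi-likelihood) and Benjamini-Hochberg adjustment. Alternatives were DESeq2 1.42.0, limma 3.58.1, other filters, totals, clusterings and doublet limits, a dominant hormone gate and leaving out each library, or, added after the data were seen, each same-numbered pair. Deviations of same-numbered WT and KO libraries correlated at 0.531, 0.486 and 0.238, and those of other WT and KO libraries at −0.508 to −0.00333. Deviations from a group mean sum to 0 within the group, which lowers the latter values. The labels give replicate numbers without stating a pairing, so the fits by pair rest on an assumed pairing. Chi-square tests of library sums found no copies. p-values between genotypes measure the spread between libraries. As each library is 1 mouse, differences between mice and between library preparations cannot be told apart. In fits with a pair or library as a block, they measure the spread of differences within the blocks. The edgeR procedure was tested on data simulated for the β-like comparison of genotypes. It recovered 51 of 100 genes with a true absolute log2FC of 0.5 and 99 of 100 at 1, with 16 false calls. Changes as small as the members' log2FC in β-like cells were not simulated, so the absence of a call does not show that they were unchanged. CPM intervals would cover counting error only and are not given. In *Ywhaz*-free KO cells, a cell without a UMI is not proven recombined. Named genes were all members and, from each list, those called between genotypes, otherwise the 2 lowest p. List genes called between types and the p53 motif were chosen after their values or letters were seen.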

Additional observations from a re-analysis of the deposited data

How the results depend on the processing

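No member was called between genotypes in any type under the alternatives run, except β *Cdkn1a* in the paired fit without pair 2 (−0.38), added after the data were seen. The number of all genes called in β-like cells was 1, with 7 under DESeq2, 11 without a filter on low counts, 10 without TMM and 25 with the replicate block. In α-like cells 0 became 24 without a filter and 7 with the block, in δ-like cells 0 became 11 and 6, and in *Ppy*-like cells 2 became 9 and 4, with 1 under DESeq2. In endothelial-like cells 0 became 65 without a filter, 28 with the block and 1 under DESeq2, in macrophage-like cells 0 became 104, 36 and 3, in B-like cells 0 became 64 and 6, and in stellate-like cells the block gave 1. Leaving out 1 library each in turn gave 0 to 1 genes in α, 0 to 5 in δ, 2 to 12 in *Ppy*, 0 to 1 in macrophage and 0 to 4 in B-like cells, and 1 to 2 genes for the β against α term. The cause of these shifts was not tested. Over WT libraries only, 2 members were called for β over α, and leaving out 1 library gave 1 to 2. *Cdkn1a* for β over α was 1.21 over WT libraries only and 0.76 to 1.006 without 1 library, passing without KO replicate 3. Of 881 values of single genes under alternatives, 807 kept direction and call, 3 passed newly and 71 turned, none of them called in either fit. Of those that turned, 48 were genotype values in types other than β, 11 differences of genotype effects between types, 4 genotype values in β, 5 β against α or δ and 3 shares. Those of values given in the report were β *Prlr* between genotypes (0.0069 by the dominant hormone), *Cdkn2c* for β over α (−0.15) and *Ccnd3* for β over δ (0.057) over WT libraries only, and the unthinned shares of *Ccnd1* (−3.01 percentage points), *Cdk4* (−2.93) and *Cdkn2c* (−1.83). Without 1 library, the genotype log2FC in β-like cells ranged from −0.019 to 0.086 for *Ccnd1*, −0.030 to 0.57 for *Cdkn2c* and −0.043 to 0.0082 for *Prlr*, from 0.059 (without KO replicate 2) to 0.23 for *Cdk4*, −0.21 to −0.052 (without WT replicate 1) for *Cdkn1b* and −0.16 to −0.061 (without KO replicate 2) for *Ccnd3*, and *Ccnd3* for β over δ from −0.093 to 0.031. Depth limits *Cdk6* and *Cdkn1c* in β-like cells, at 79 and 138 UMIs in all.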
